A study of Homo sapiens with 38 samples.

Results

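The sites described here are those of endogenous Sp1 in the parental line, as called with each of 2 antibodies against the same V5 tag. CUT&RUN (cleavage under targets and release using nuclease) uses an antibody to bring a nuclease to a protein in permeabilized cells, so that the DNA beside that protein is cut out and sequenced. The parental line is U2OS, a human osteosarcoma line, in which both copies of SP1 were edited to encode V5-Halo-Sp1, and it is 1 clone. Its cells carried no transgene but were labelled as going through the same steps as the other lines, with 1 µg/ml doxycycline for 36 h, sorting, and 36 h more in doxycycline. For each antibody there were 2 replicates, which makes 4 of the 38 samples of the series. Each library started from 500000 cells permeabilized with 0.02% digitonin and was amplified for 11 PCR cycles. The first antibody was a rabbit anti-V5 (Abcam ab9116) and the second a mouse anti-V5 (Thermo Fisher R960-25). All peaks of both deposited lists were taken, 1987 with rabbit and 1830 with mouse anti-V5. They are 3817 of the 27085 peaks in the 19 lists of the series.

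Lists from other samples served for comparison. In 3 further lines, all derived from the V5-Halo-Sp1 clone, doxycycline induced a FLAG-tagged construct without V5, namely wild-type Sp1 (Sp1 WT), the Sp1 activation domain fused to LacI (Sp1 IDR–LacI) or the same domain fused to the DNA-binding domain of CTCF (Sp1 IDR–CTCF DBD). Both V5 antibodies were also used in those lines, after the same induction and sorting. The only V5-tagged protein there is again endogenous Sp1, now in the presence of a construct. Neither V5 antibody was used in cells without the tag, so what else it binds was not measured. The anti-FLAG list of the Sp1 WT line was used too. Lists whose antibody had no tagged Sp1 to bind, called control-type here, were those of the parental line with mouse (22 peaks) and with rabbit (54 peaks) anti-FLAG, and that of a line expressing SNAP with a nuclear localization signal, with mouse anti-FLAG (295 peaks).

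Sp1 is a ubiquitous transcription factor whose zinc fingers bind the GC box, GGGCGG on either strand, in the CpG-rich promoters of many housekeeping and growth-related genes. The long disordered regions before its DNA-binding domain carry its activation function. Many promoters hold GC boxes, and related factors share them. An antibody against a tag on the endogenous protein is aimed at Sp1 itself. A second antibody against the same tag shows how much of a peak list depends on the antibody.

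Each deposited list was made by the authors from both replicates. An overlap of lists therefore has no replicates, and no test across samples was made between the antibodies. Shares are given with 95% Wilson intervals and differences between shares with 95% Newcombe intervals. Both cover counting error over peaks only, and neighbouring peaks are not independent. The value of a peak is the −log10 p that the authors' peak caller gave it, once for each replicate, and the merged value was the smaller of the 2 in all 3817 peaks. It is not known which replicate of the labels is in the first column. The values grow with sequencing depth, which was not analysed here, and the libraries were not alike: the first replicate column had the lower value in 95.3% of rabbit peaks and in 99.8% of mouse peaks. Peaks were therefore compared between lists by their percentile rank within a list, from 0 for the lowest merged value to 100 for the highest.

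Both antibodies found largely the same places. At least 1 bp of a mouse peak lay under 1504 of the 1987 rabbit peaks (75.7%, 73.8 to 77.5%), and at least 1 bp of a rabbit peak under 1499 of the 1830 mouse peaks (81.9%, 80.1 to 83.6%). With the 1830 highest ranked peaks of each list the shares were 79.5 and 79.2%, and at IDR of at most 0.01 they were 81.7 and 76.5%, so the lists' lengths and thresholds set which of them was higher. The lists together covered 2312 regions, of which 1498 had peaks with both antibodies. Among the overlapping peaks, 1491 pairs were one-to-one and are called sites. A further 483 rabbit peaks and 331 mouse peaks overlapped nothing in the other list and are called rabbit-private and mouse-private. They were not the shoulders of shared peaks: the nearest peak of the other list was within 1000 bp for only 2 rabbit-private and 3 mouse-private peaks, and at a median of 229403 and 147369 bp.

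Before their values, the DNA under some of these peaks is shown. The sequences are from hg38, plus strand, with 50 bp to either side of the rabbit anti-V5 summit, with each GC box (GGGCGG, or CCGCCC where it lies on the other strand) in capitals. The first 6 are the promoters with the highest mean rank over both antibodies, shown because they carry the strongest anti-V5 signal.

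MYO1F (chr19:8525756-8525856): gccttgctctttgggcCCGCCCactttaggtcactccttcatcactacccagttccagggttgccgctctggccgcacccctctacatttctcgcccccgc
PLAUR (chr19:43668517-43668617): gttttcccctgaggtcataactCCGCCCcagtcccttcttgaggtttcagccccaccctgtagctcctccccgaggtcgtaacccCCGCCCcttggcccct
ENSG00000267314 (chr19:5904532-5904632): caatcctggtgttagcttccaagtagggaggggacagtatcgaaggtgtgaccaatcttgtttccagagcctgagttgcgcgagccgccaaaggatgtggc
C19orf81 (chr19:50658259-50658359): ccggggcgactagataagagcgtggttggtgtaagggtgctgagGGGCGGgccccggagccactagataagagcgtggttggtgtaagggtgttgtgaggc
LIN52 (chr14:74084709-74084809): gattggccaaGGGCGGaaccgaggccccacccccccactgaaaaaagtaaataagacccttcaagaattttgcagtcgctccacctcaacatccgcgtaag
EEPD1 (chr7:36152939-36153039): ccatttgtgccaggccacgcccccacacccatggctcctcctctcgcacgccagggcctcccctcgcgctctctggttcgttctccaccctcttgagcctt

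The next 2 are the highest ranked private peaks outside repeated sequence, ELL for rabbit and, centred on the mouse summit, CELF5 for mouse, shown because they are the strongest places where the antibodies parted.

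ELL (chr19:18522301-18522401): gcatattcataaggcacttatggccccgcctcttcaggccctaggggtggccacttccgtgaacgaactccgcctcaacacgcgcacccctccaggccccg
CELF5 (chr19:3285478-3285578): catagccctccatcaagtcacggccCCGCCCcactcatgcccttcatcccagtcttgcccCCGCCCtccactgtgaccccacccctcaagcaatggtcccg

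PLAUR had 2 GC boxes in this window, as did CELF5, and MYO1F, C19orf81 and LIN52 had 1 each. No GC box lay in the windows of ENSG00000267314, EEPD1 and ELL, although EEPD1 had 3 within 100 bp of its summit. The letters searched were the 6 bases alone, and close variants, which Sp1 is also known to bind, were not counted.

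The strongest promoter was that of MYO1F, which encodes an unconventional myosin. Its values were 144 and 153 in the rabbit replicates and 208 and 231 in the mouse replicates, with percentile ranks of 99.72 and 99.97. The summit lay 816 bp downstream of the nearest annotated start of the gene, in an intron, and was one of only 2 rabbit summits among the 20 strongest promoters that were downstream. PLAUR, the receptor of the urokinase plasminogen activator, followed with 158 and 171 against 179 and 288, its summit 247 bp upstream of the nearest start and inside an intron of a longer transcript. The third peak lay between genes, 259 bp upstream of the start of ENSG00000267314, a protein-coding gene without a symbol, and within 1000 bp of the starts of NDUFA11, a subunit of respiratory complex I, and VMAC. It had 148 and 155 with rabbit and 175 and 243 with mouse anti-V5. At all 3 of these promoters both mouse values were above both rabbit values.

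C19orf81 had 142 and 138 with rabbit and 185 and 246 with mouse anti-V5, with the summit 187 bp upstream of the start. The peak between LIN52, a subunit of the MuvB core of the DREAM complex, and ALDH6A1, a mitochondrial dehydrogenase, had 144 and 172 against 159 and 245. EEPD1, which takes part in DNA repair at stalled replication forks, had 130 and 146 against 179 and 260. The other promoters among the 20 were, in order, SLC27A1 (a fatty acid transporter), SPAG4 (a SUN-domain protein of the nuclear envelope), CNGA4 (a cyclic nucleotide-gated channel subunit, with FHIP1B), RELL1, RALY (an RNA-binding protein), CNOT3 (a subunit of the CCR4-NOT deadenylase), CARD19, BRD3OS, PLCD1 (a phospholipase C), KAT6B (a histone acetyltransferase), CCDC9, TMEM141, MYH9 (the heavy chain of non-muscle myosin IIA) and HDGFL2. Over the 20 promoters the rabbit values ran from 94.3 to 187 and the mouse values from 125 to 291. Both mouse values were above both rabbit values at 14 of the 20, and at 17.4% of the 1491 sites. These promoters were chosen for their rank, and −log10 p grows with depth, so this is a description of the lists and not of how much Sp1 each antibody recovered.

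**Figure D1:**
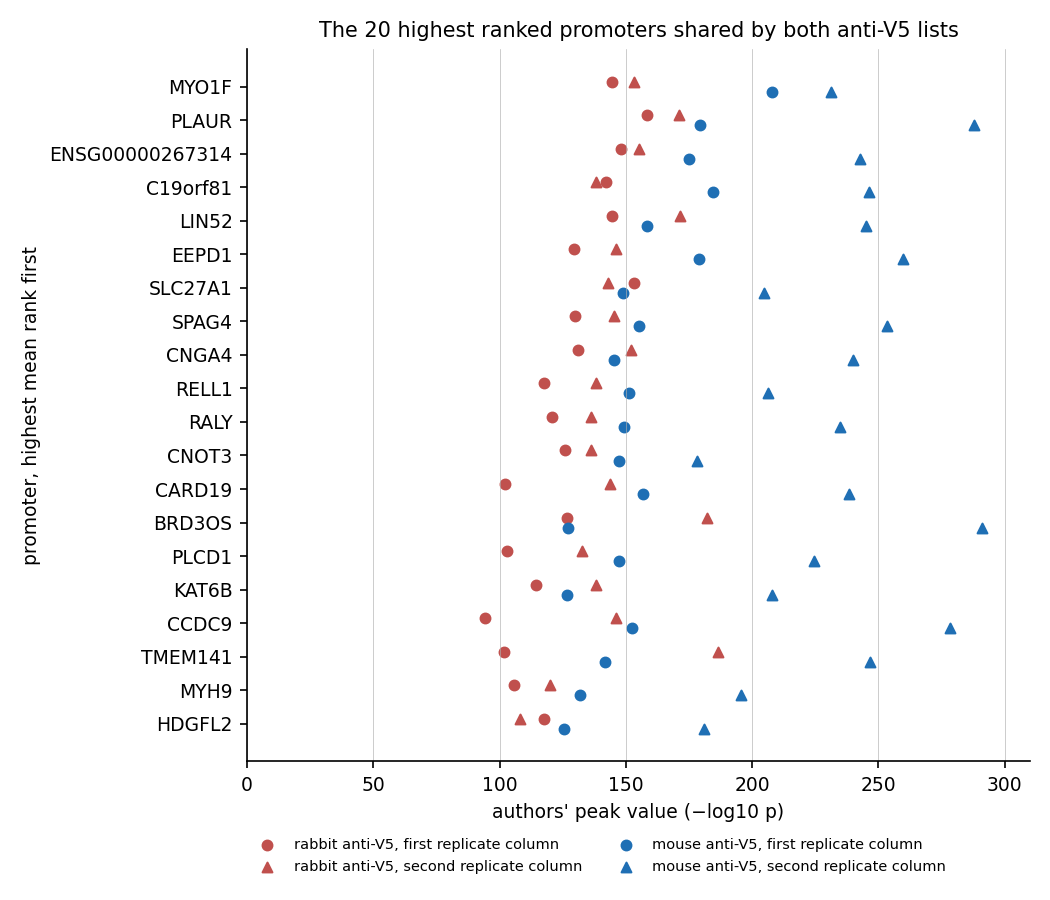
The −log10 p of the authors' peaks (x axis) at the 20 promoters with the highest mean rank (y axis), for each replicate column of rabbit (red) and mouse (blue) anti-V5. All 20 second mouse values lie above the second rabbit values, and 19 of 20 first mouse values above the first rabbit values.

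Of the 20 promoters, 8 were on chromosome 19, as were 14.2% of all shared rabbit peaks. A GC box lay within 100 bp of the rabbit summit at 17 of the 20, and at 84.8% of all shared rabbit peaks. The 3 promoters without were ENSG00000267314, BRD3OS and KAT6B. At 18 of the 20 the rabbit summit lay upstream of the start, as did 78.0% of the promoter summits of all shared rabbit peaks. In libraries that did not enter the ranking, 16 of the 20 were found with both antibodies in all 3 other lines, as were 51.4% of the 1491 sites. A FLAG peak of induced Sp1 WT lay over 14 of the 20, and over 83.5% of all shared rabbit peaks. The 6 promoters without one were PLAUR, SPAG4, CARD19, TMEM141, MYH9 and HDGFL2. A top anti-V5 rank thus did not always come with a FLAG peak.

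The site with the highest mean rank of any kind was not among these 20. It lay 241 bp upstream of EEF2KMT, a methyltransferase of elongation factor 2 whose gene was formerly called FAM86A, at chr16:5097507-5098818. Its values were 162 and 169 with rabbit and 190 and 252 with mouse anti-V5. Of all words of 31 bases within 100 bp of the rabbit summit, 71.3% had at least 1 more copy in the genome, so that reads from near-identical copies may have been placed here. Its position is therefore uncertain, and sites where at least 50% of these words are repeated were left out of the named promoters.

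The order of the sites was alike with both antibodies. Spearman's rho of the merged values over the 1491 sites was 0.826 between antibodies. Between the replicates of the same antibody it was 0.825 for rabbit and 0.872 for mouse. With the same column in both lists, rho between antibodies was 0.824 (first) and 0.849 (second), and with unlike columns 0.760 and 0.801. These are descriptions across sites of 4 libraries, and no p is given. The median change in rank was 9.46 percentile points between antibodies, 9.26 between the rabbit and 8.32 between the mouse replicates. Sites that moved by more than 25 points made up 14.4% between antibodies, 15.7% between rabbit replicates and 9.19% between mouse replicates. The merged value was mostly that of the first column, so the merged comparison of antibodies was close to first column against first column. The comparison of replicates instead crossed columns. All sites had also passed the authors' IDR filter on the agreement of replicates within each antibody. Whether antibody or replicate moved the ranks more therefore cannot be told from these values. With unlike columns, where antibody and column both change, 20.0 and 17.2% of sites moved by more than 25 points.

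**Figure D2:**
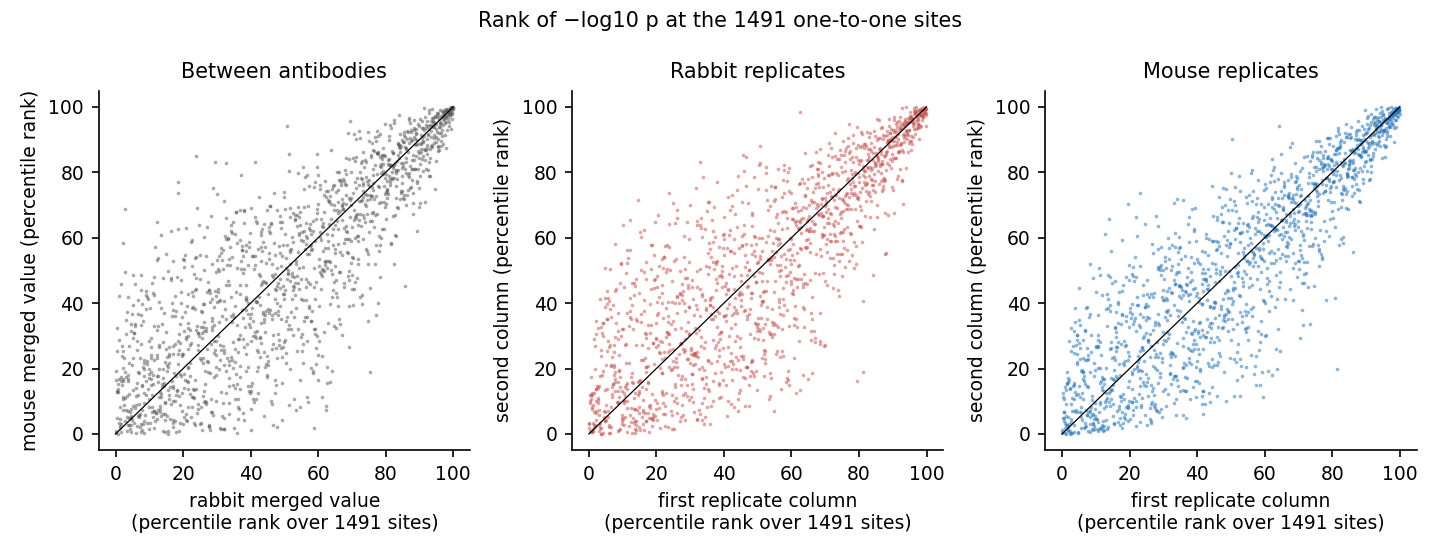
Percentile rank of −log10 p at the 1491 sites, with rabbit merged values on the x axis and mouse merged values on the y axis (left), and the first against the second replicate column of rabbit (middle) and mouse (right) anti-V5. Each point is a site and the line marks equal rank. The points narrow toward the line at high rank in all 3 plots, with rho of 0.826, 0.825 and 0.872.

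The summits also lay close together. The distance between the rabbit and the mouse summit of a site had a median of 18 bp (quartiles 8 and 34 bp), and 95% of sites had their summits within 100 bp. Between replicates, the median distance was 26 bp with rabbit and 24 bp with mouse anti-V5. The summit of a merged peak is the mean of its replicate summits, which by construction varies less than a single summit.

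Sites were slightly wider with mouse anti-V5. The median width at the 1491 sites was 645 bp with rabbit (quartiles 488 and 870 bp) and 684 bp with mouse (496 and 953 bp), and the mouse peak was the wider at 867 sites (58.1%). Widths ranked alike, with a rho of 0.777 between antibodies. Width and value were only loosely tied, with a rho of 0.389 in the rabbit list and 0.422 in the mouse list. The private peaks had medians of 541 bp (rabbit) and 610 bp (mouse), against 648 and 685 bp for the shared peaks of the same lists. A wide peak overlaps more easily, so no test was made of this.

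A few sites changed rank strongly. The largest move toward rabbit was at the promoter of CHD8, a chromatin remodeler, with values of 28.8 and 35.6 with rabbit and 10.0 and 32.1 with mouse anti-V5, at percentile ranks of 66.9 and 3.88. ATF3, a stress-induced transcription factor, had 31.2 and 38.5 against 11.9 and 32.4. INTS13, an Integrator subunit whose promoter it shares with FGFR1OP2, had 31.2 and 33.0 against 12.1 and 46.7. At CHD8 and ATF3 both rabbit values exceeded the first mouse value while the second mouse value lay between them. In the other direction, DDI2, an aspartic protease, had 10.1 and 33.0 with rabbit against 41.3 and 84.5 with mouse anti-V5, at percentile ranks of 6.89 and 73.3. WDR20, at a promoter shared with HSP90AA1, had 9.91 and 22.1 against 34.0 and 37.7. The last was an intronic site of the noncoding ENSG00000286389, 24493 bp from the nearest start of SNAP47, with 16.6 and 51.3 against 68.4 and 113. These 6 were chosen for their difference. Of the other 3 lines, whose rabbit lists were the longer, CHD8 was found with rabbit in 2 and mouse in 0, ATF3 in 3 and 1, INTS13 in 3 and 0, and WDR20 in 2 and 1. DDI2 and the site in ENSG00000286389 were found with both antibodies in all 3.

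Sharing depended on rank. With each list divided into 10 bins of nearly equal size by rank, in the lowest bin of the rabbit list 33.5% of peaks (27.3 to 40.4%) overlapped a mouse peak, in the fifth bin 83.6% (77.8 to 88.1%) and in the top bin 94.0% (89.8 to 96.5%). In the mouse list the shares were 49.2% (42.0 to 56.4%), 85.2% (79.4 to 89.7%) and 94.0% (89.6 to 96.6%). The median percentile rank of private peaks was 20.3 in the rabbit and 21.9 in the mouse list, against 59.9 and 56.8 for shared peaks. Most private peaks were thus weak, and yet 12 rabbit and 11 mouse peaks of the top bin were private.

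**Figure D3:**
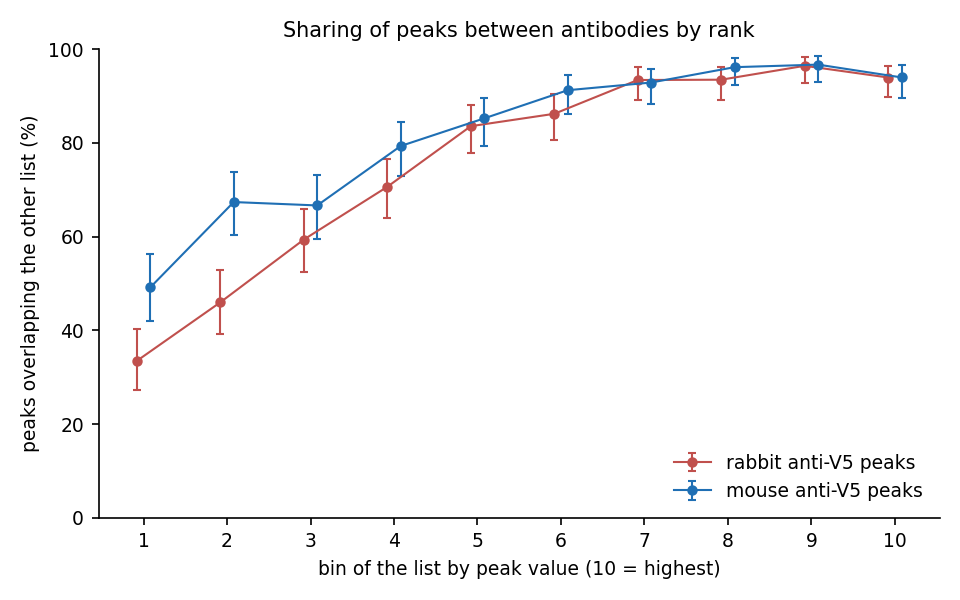
Share of peaks overlapping the other antibody's list (y axis, %) by bin, 10 bins a list in order of −log10 p (x axis, 10 = highest), for rabbit (red) and mouse (blue) anti-V5, with 95% Wilson intervals. Sharing rises from 33.5 and 49.2% in the lowest bin and is 94.0% in the highest bin of both lists.

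Among the strongest private peaks outside repeated sequence, ELL, an elongation factor of RNA polymerase II, had a percentile rank of 99.87 in the rabbit list and values of 176 and 156, at chr19:18521401-18522740, its summit 235 bp upstream of the start. In the other 3 lines, the same place had a mouse peak in 3 and a rabbit peak in 0, the reverse of the parental line. HNRNPL, a splicing regulator, had 160 and 155 and was found in 2 of 3 lines with each antibody. The noncoding LINC02021 had 138 and 164, and 43.3% of the words around its summit were repeated. CASP9, the initiator caspase of the mitochondrial pathway, had 106 and 132 and was found in 3 lines with rabbit and 2 with mouse. The fifth was the noncoding ENSG00000291186 on chromosome 11, with 104 and 125. The lowest of these 5 still had a percentile rank of 97.8 in the rabbit list.

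Outside repeated sequence, the strongest mouse-private peak, 4383 bp wide, lay in an intron of CELF5, an RNA-binding protein, at chr19:3281843-3286225, with values of 151 and 205 and a rabbit peak 1602 bp away. FAM86EP, a transcribed pseudogene of the family of EEF2KMT, had 148 and 201, with 48.5% of words repeated. APLP1, a relative of the amyloid precursor protein whose promoter neighbours that of NPHS1, had 132 and 205. The peak of SLC8A2, a sodium-calcium exchanger, lay in an untranslated exon 4223 bp downstream of the nearest start and had 127 and 196. KIFC2, a kinesin, had 121 and 232. All 5 were found again with both antibodies in at least 1 other line, and CELF5, FAM86EP, SLC8A2 and KIFC2 with mouse anti-V5 in all 3.

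Shared sites were promoter sites. The rabbit summit of 1366 of 1504 shared peaks (90.8%, 89.3 to 92.2%) was within 1000 bp of a transcription start of GENCODE 44. Of the shared peaks, 85.6% lay at a protein-coding promoter, 5.19% at another promoter, 5.39% in an intron away from starts, 0.665% in an exon away from starts and 3.13% outside genes. The median summit was 91 bp upstream of the start (quartiles 162 and 10 bp upstream), and 78.0% (75.7 to 80.1%) of promoter summits were upstream. The mouse summits of the shared peaks gave 90.7% and a median of 90 bp upstream. Chromosome 19 held 14.2% of shared peaks (12.6 to 16.1%), and 7.37% of protein-coding genes.

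Private peaks were at promoters as well, though less often with rabbit. The share within 1000 bp of a start was 85.1% (81.6 to 88.0%) for rabbit-private and 88.2% (84.3 to 91.3%) for mouse-private peaks. The rabbit-private share was 5.73 points below that of the shared peaks of the same list (2.44 to 9.44 points), and the mouse-private share 2.51 points below its counterpart, an interval that included 0 (−0.916 to 6.66 points). Rabbit-private peaks lay outside genes and away from starts in 7.45% of cases against 3.13% of the shared peaks, a difference of 4.33 points (2.07 to 7.13 points). The 2 private classes did not differ from each other in promoter share beyond counting error (3.12 points, −1.75 to 7.73 points).

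The GC box was less frequent in rabbit-private than in mouse-private peaks. Within 100 bp of the summit, it was present in 84.8% of shared peaks (82.9 to 86.5%) and 83.7% of mouse-private peaks (79.3 to 87.3%), but in 70.8% of rabbit-private peaks (66.6 to 74.7%). The rabbit-private share was 14 points below that of the shared peaks of the rabbit list (9.65 to 18.5 points). For the mouse list the difference was 0.904 points (−3.17 to 5.60 points). Mouse-private exceeded rabbit-private peaks by 12.9 points (7.04 to 18.4 points). In windows of the same 201 bp placed 2000 bp to either side, the shares were 7.21% (shared), 8.18% (rabbit-private) and 11.0% (mouse-private), and around the starts of all protein-coding genes 53.7% (53.0 to 54.3%). All classes were above the starts of all genes. Those windows were centred on the start, however, and the peak windows on the summit, which mostly lay upstream of it. What part this has in the difference was not tested, and a match to these letters does not show that Sp1 sits on them. The longer box GGGGCGGGG, which contains the shorter, was again least frequent in rabbit-private peaks, with 42.4% of shared, 30.2% of rabbit-private and 42.9% of mouse-private peaks, against 18% of all starts. The median number of boxes was 2 in shared, 1 in rabbit-private and 2 in mouse-private peaks. Base composition of the same windows differed too. Their median content of G and C was 66.2% in shared, 63.7% in rabbit-private and 69.2% in mouse-private peaks. What part this has in the GC box shares was not tested.

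The anti-FLAG list of induced Sp1 WT, made from other libraries with another antibody, split the classes the same way. A FLAG peak overlapped 83.5% of shared peaks (81.6 to 85.3%), 82.2% of mouse-private peaks (77.7 to 85.9%) and 68.1% of rabbit-private peaks (63.8 to 72.1%). The rabbit-private share was 15.4 points below the shared peaks (10.9 to 20.0 points) and 14.1 points below the mouse-private peaks (8.05 to 19.8 points). Mouse-private and shared mouse peaks differed by 1.28 points (−2.95 to 6.11 points). Against only the Sp1 WT peaks with IDR of at most 0.01, the shares were 74.1% (shared), 60.1% (mouse-private) and 40.4% (rabbit-private), and mouse-private peaks then stood below shared peaks too. The FLAG antibody was raised in mouse, and what part this has was not tested.

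Rank moved with these classes, and for rabbit-private peaks the differences were also present among peaks below the median rank. Across the 1491 sites, the FLAG share was 85.0% in the lowest and 81.2% in the highest of 4 equal bins of mean rank. Among only the peaks below the median rank of their list, a comparison chosen after seeing the data, the GC box was present in 86.5% of 576 shared and 69.8% of 411 rabbit-private peaks (a difference of 16.6 points, 11.4 to 21.9 points). A FLAG peak lay over 85.8% and 66.9% of them (18.9 points, 13.5 to 24.2 points). For 637 shared and 278 mouse-private peaks below the median of the mouse list, the differences were 0.691 points for the GC box (−4.26 to 6.18 points) and 1.72 points for FLAG (−3.28 to 7.26 points). The cut did not match the ranks of the classes. The lowest bin of the rabbit list held 66 shared and 131 private peaks, and bin 4 held 142 and 59. What part rank has in the differences was therefore not tested.

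**Figure D4:**
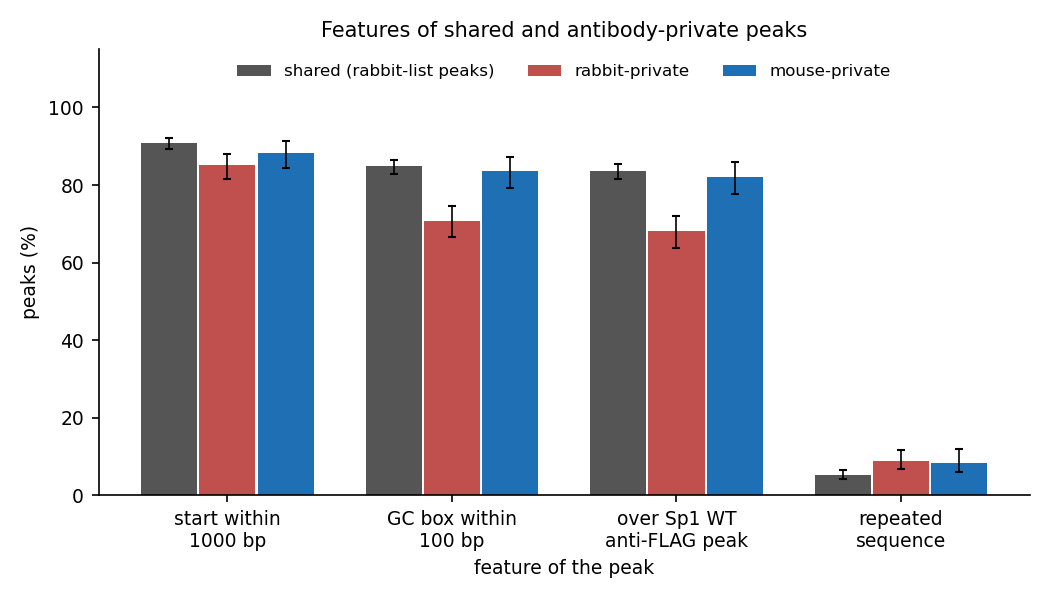
Share of peaks (y axis, %, with 95% Wilson intervals) with a start within 1000 bp, with a GC box within 100 bp, over an Sp1 WT anti-FLAG peak and in repeated sequence, for 1504 shared peaks of the rabbit list (grey), 483 rabbit-private (red) and 331 mouse-private peaks (blue). For the GC box and the FLAG list, rabbit-private peaks stand below the other classes, at 70.8 and 68.1%.

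Control-type lists touched few of these peaks. Those lists were short (22, 54 and 295 peaks) and made with anti-FLAG, so a low overlap says little about background of the V5 antibodies. None of the 1504 shared rabbit peaks (up to 0.255%), the 1499 shared mouse peaks or the 331 mouse-private peaks (up to 1.15%) overlapped such a list, but 5 of the 483 rabbit-private peaks did (1.04%, 0.443 to 2.40%). All 5 lay in the list of rabbit anti-FLAG in the parental line and 1 also in that of mouse anti-FLAG. Repeated sequence held 5.32% of shared peaks (4.30 to 6.57%), 8.90% of rabbit-private (6.68 to 11.8%) and 8.46% of mouse-private peaks (5.92 to 12%). Without these peaks the GC box shares were 85.9, 72.3 and 85.8%, and the FLAG shares 83.6, 70.7 and 81.5%.

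The V5 lists of the other 3 lines came from libraries that did not define the classes. Shared peaks were found again in them most often. With rabbit anti-V5, 79.7, 87.8 and 87.2% of shared peaks were found in the Sp1 WT, Sp1 IDR–LacI and Sp1 IDR–CTCF DBD lines, and with mouse anti-V5 69.7, 80.5 and 72.3%. In at least 1 line and with either antibody, all but 36 (2.39%) of the 1504 were found again. All 3 lines had a peak with rabbit in 69.8% and with mouse in 59.5%.

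Rabbit-private peaks were found in the same 3 lines in 33.5, 51.1 and 48.7% of cases with rabbit and in 12.6, 21.7 and 14.9% with mouse anti-V5. For mouse-private peaks the shares were 37.5, 57.1 and 55.3% with rabbit and 34.7, 55.0 and 40.8% with mouse. Neither antibody found 28.4% of rabbit-private (24.5 to 32.5%) and 19% of mouse-private peaks (15.2 to 23.6%) in any of the 3. With the other antibody, at least 1 of the 3 lines had a peak for 29.4% of rabbit-private (25.5 to 33.6%) and 74.0% of mouse-private peaks (69.0 to 78.4%).

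List length matters here, since the rabbit lists of these lines were longer than the mouse lists (1790 against 1332, 2126 against 1739 and 2172 against 1413 peaks). With whole lists, 221 rabbit-private peaks were found in at least 1 line by a single antibody, and for 204 of them (92.3%, exact interval 88.0 to 95.5%) it was rabbit. Among 83 such mouse-private peaks it was rabbit for 60 (72.3%, 61.4 to 81.6%). With each list reduced to its 1332 highest ranked peaks, the rabbit-private figure was 92 of 107 (86.0%, 77.9 to 91.9%), whereas the mouse-private figure turned to 19 of 75 (25.3%, 16 to 36.7%). At equal length each private class was thus found more often by its own antibody. In at least 1 line, rabbit-private peaks were then found with rabbit in 36.6% and with mouse in 20.7%, and mouse-private peaks with rabbit in 39.6% and with mouse in 50.8%.

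At equal length at least 1 of the rabbit lists held 2.93 points more of the mouse-private than of the rabbit-private peaks (−3.81 to 9.72 points), and by line the differences were 2.29, 4.85 and 6.26 points, of which the last, in the Sp1 IDR–CTCF DBD line, had an interval above 0 (0.281 to 12.4 points). At least 1 of the mouse lists held 30.1 points more of the mouse-private peaks (23.5 to 36.4 points). The 3 lines share the clone and the treatment with the parental line, so the lists are not independent of each other.

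**Figure D5:**
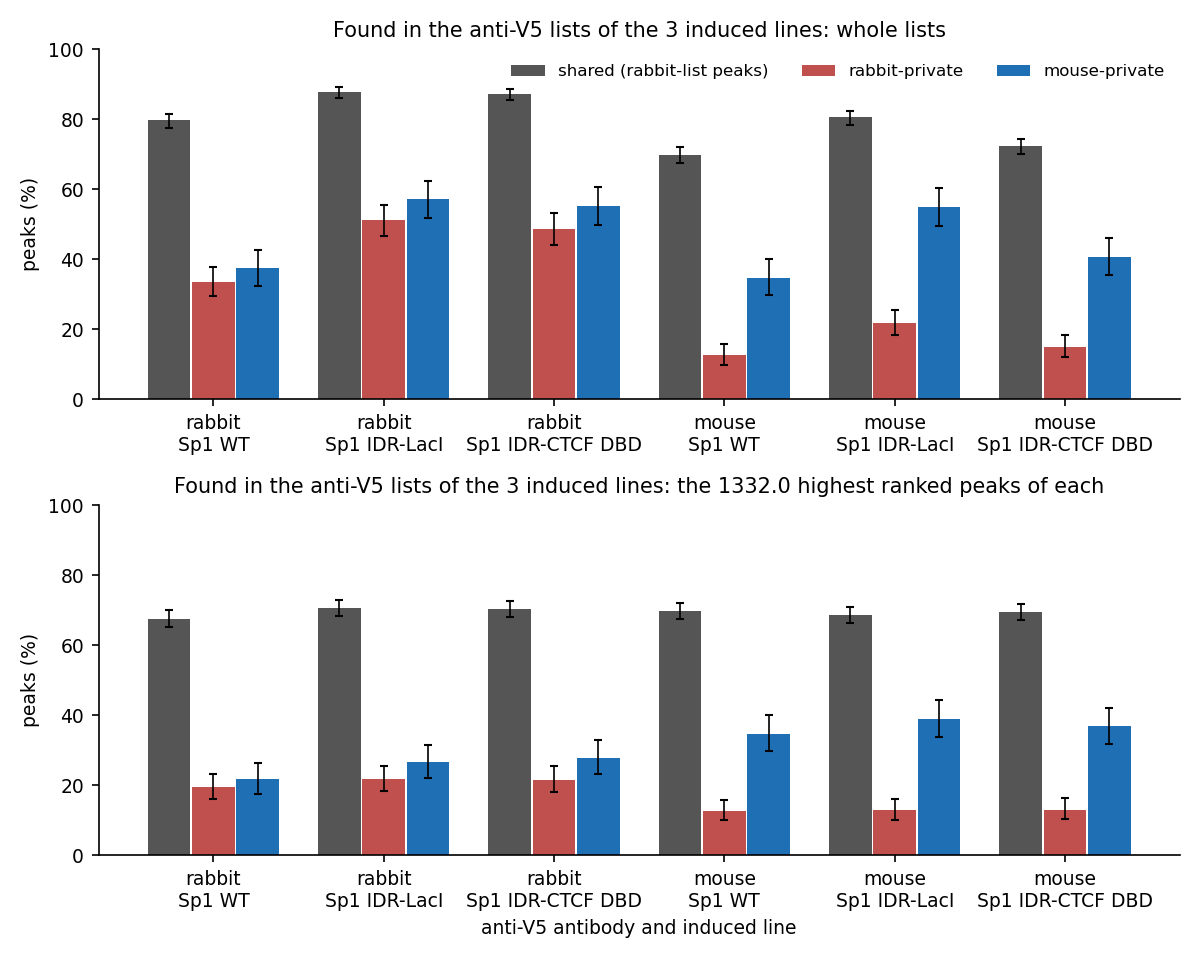
Share of shared (grey, rabbit-list peaks), rabbit-private (red) and mouse-private (blue) peaks of the parental line (y axis, %, with 95% Wilson intervals) found in the anti-V5 lists of 3 induced lines by antibody and line (x axis), with whole lists (top) and with 1332 peaks a list (bottom). Rabbit-private peaks are lowest in every mouse list, at 12.6 to 21.7% in the whole lists.

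Sites were last set against groups of genes. Of 20007 protein-coding genes, 1609 (8.04%) had a shared peak within 1000 bp of a start, 455 (2.27%) a rabbit-private and 316 (1.58%) a mouse-private peak. The private members of each list are named without a test. The SP1 gene itself had a shared peak, at percentile ranks of 93.6 and 89.7. Its values were 72.7 and 117 with rabbit and 78.4 and 152 with mouse anti-V5. Among 27 members of the SP and KLF family of zinc-finger factors, SP1, SP2, KLF13 and KLF16 had a shared peak (14.8%, 5.91 to 32.5%). SP2 had 42.0 and 58.0 against 24.9 and 72.2, KLF13 37.6 and 51.6 against 26.3 and 99.3, and KLF16 21.5 and 65.0 against 41.1 and 148. The values of the antibodies overlapped at all 4. KLF5, KLF7 and SP4 had a mouse-private peak and no member a rabbit-private peak.

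DNA replication factors had the largest share of the 9 lists, with 10 of 45 genes (22.2%, 12.5 to 36.3%). They were CDC6, GINS4, LIG1, ORC4, ORC6, PCNA, POLD1, POLD2, POLD3 and RPA3. POLD1, the catalytic subunit of DNA polymerase delta, was the highest, with 35.8 and 74.9 against 51.7 and 121. LIG1, the replicative DNA ligase, had 28.1 and 29.3 against 36.3 and 110. Both mouse values were above both rabbit values at LIG1 and at CDC6, as they were at 17.4% of the 1491 sites. ORC4, of the origin recognition complex, had 20.7 and 36.2 against 28.2 and 35.8, and CDC6, which loads the helicase, 17.6 and 23.4 against 35.1 and 46.6. MCM10, ORC2 and POLE3 had a rabbit-private and GINS2 a mouse-private peak.

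Of the lists tied to mitochondria and translation, the aminoacyl-tRNA synthetases had 6 of 37 (16.2%, 7.65 to 31.1%) and the mitochondrial ribosome 10 of 83 (12%, 6.68 to 20.8%). The intervals of both included the 8.04% of all protein-coding genes. PARS2, the mitochondrial prolyl-tRNA synthetase, had 82.8 and 102 against 81.3 and 143, at percentile ranks of 95.3 and 90.4. MRPL4 had 38.9 and 42.4 against 53.7 and 72.2, MRPS18B 32.0 and 64.3 against 43.9 and 65.4. CARS2, TARS1, SARS2, MRPL2 and MRPL11 were the others named by the rule, with percentile ranks from 29 to 73.2 in the rabbit list. Oxidative phosphorylation had 7 of 84 (8.33%, 4.10 to 16.2%), led by NDUFA11 at the third promoter above, then COX8A (42.4 and 54.6 against 71.4 and 67.1) and SDHB (40.5 and 61.4 against 52.6 and 114), with ATP5MC1 lower at 29 and 26.1 against 24.9 and 34.7.

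The remaining lists were near or below the share of all genes. The cytosolic ribosome had 5 of 82 (6.10%, 2.63 to 13.5%), with RPS19 at 43.7 and 45.4 against 33.2 and 59.7, followed by RPL10, RPL41 and FAU. The proteasome had 3 of 39 (7.69%, 2.65 to 20.3%), PSMB10, PSMD8 and PSMC6, while PSMC3, PSMD2, PSMD3 and PSMD9 had a mouse-private and PSMB9 a rabbit-private peak. RNA polymerase II and its general factors had 3 of 66 (4.55%, 1.56 to 12.5%), MED29, MED20 and POLR2I. Of 25 genes known as classic Sp1 targets only TK1, thymidine kinase, had a shared peak (16 and 37.3 against 21.1 and 62.2). A gene without a peak had none that passed the authors' threshold in both replicates, which does not show that Sp1 was absent. Of the 9 lists, only that of DNA replication had an interval above 8.04%, and with 9 lists looked at and chosen with earlier results known, these counts are descriptions.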

How the data were processed

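For alignment to hg38 the authors used Bowtie2 2.3.5.1 on reads trimmed by Cutadapt 2.6. Duplicates were taken out with SAMtools 1.9. Peaks of each replicate came from MACS3 (version given as 2.2.7.1) with a p-value threshold of 1e-3, against merged control libraries, and the pair of replicates went into IDR, the irreproducible discovery rate, in order of p-value. Which libraries were the controls is not given in the sources used here. The deposited lists hold peaks with IDR of at most 0.1, with −log10 p-values of each replicate and a score, the −log10 of the IDR made by the authors, used here for stricter thresholds. The study's read numbers were not analysed here, so no limit from depth is given. Tables of the authors' own differential regions were not used, and 0 columns were unmapped.

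Overlap meant at least 1 bp in common and was checked against bedtools 2.31.1, with 0 differences, and on simulated data. Starts came from GENCODE 44, and peaks were searched for motifs within 100 bp of the summit on both strands. Gene groups were lists of symbols, and some members are not reported here. The named promoters are the 20 with the highest mean percentile rank outside repeated sequence with both summits within 1000 bp of a protein-coding start, beside the 3 highest sites of any kind, the 5 highest private peaks of each antibody, the 3 largest rank differences each way and up to 4 members a gene list. The members, lists and rules were chosen with earlier results of these data known. Other software was Python 3.11.15, NumPy 2.4.6, pandas 2.3.3, SciPy 1.17.1, pysam 0.24.0 and matplotlib 3.10.9. The alternatives were stricter IDR, larger overlaps, equal list lengths, single replicate columns, other promoter and motif definitions and lists without repeated or control-type peaks.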

Additional observations from a re-analysis of the deposited data

How the results depend on the processing

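Of 94 alternative values of 16 results, 59 stayed within the 95% interval of the value reported (for rho, within the gap between the replicates' rho values of the antibodies). Between antibodies, IDR of at most 0.05 gave 77.9% of rabbit peaks shared, IDR of at most 0.01 gave 81.7% of rabbit and 76.5% of mouse peaks, and lists of equal length 79.5 and 79.2%. With the bounds of a single replicate column, the shares were 75.7 to 75.7% (rabbit) and 81.9 to 81.9% (mouse). This changed only the edges of peaks that had passed IDR with both replicates, so it cannot show what a single replicate would give. The rank correlation with single columns was 0.824 to 0.849. For shared, rabbit-private and mouse-private peaks in that order, the promoter share was 95.4, 90.9 and 94.3% within 5000 bp, 85.6, 77.8 and 81.3% with protein-coding starts only, and 92.8, 88.6 and 91.7% without repeated sequence. Within 500 bp it was 88.4% for shared and 84.0% for mouse-private peaks. The GC box share was 42.4, 30.2 and 42.9% with GGGGCGGGG and 95.8, 86.5 and 93.1% anywhere in the peak. The FLAG share was 74.1, 40.4 and 60.1% with Sp1 WT peaks of IDR at most 0.01. There mouse-private peaks also stood below shared peaks, unlike with the whole list. At equal length of the 6 lists, rabbit-private peaks were found with rabbit and mouse anti-V5 in 36.6 and 20.7%, and mouse-private peaks in 39.6 and 50.8%, and in all 3 other lines 20.3, 6.63, 25.4 and 25.7%. Among alternatives chosen after seeing the data, the promoter share of rabbit-private peaks with IDR of at most 0.01 was 78.7%, and the FLAG share of shared peaks below the median rank 85.8%. In each alternative run for all 3 classes, rabbit-private peaks had the lowest GC box and FLAG shares. No paired analysis was possible because the results come from no test across samples and the columns of the lists carry no replicate number.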

Other observations

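Other promoter motifs were searched in the same windows of 201 bp, and the values are given without explanation. The windows at the starts of all genes were again centred on the start and not on a summit. The CCAAT box, bound by NF-Y, was present in 47.0% of shared peaks (44.5 to 49.5%), 43.5% of rabbit-private (39.1 to 47.9%) and 39.6% of mouse-private peaks (34.5 to 44.9%), against 25.3% of the starts of all protein-coding genes. The mouse-private share was 7.52 points below that of the shared mouse peaks (1.60 to 13.2 points). The AP-1 site TGACTCA, bound by Fos and Jun factors, was present in 2.26% of shared peaks (1.62 to 3.14%), 6.42% of rabbit-private (4.56 to 8.97%) and 2.72% of mouse-private peaks (1.44 to 5.09%), against 2.13% of all starts. The rabbit-private share was 4.16 points above the shared peaks of the rabbit list (2.10 to 6.78 points). In windows 2000 bp to either side it was 3.42% for shared and 2.38% for rabbit-private peaks. Among peaks below the median rank, the shares were 3.30% (2.12 to 5.09%) for shared and 6.08% (4.15 to 8.83%) for rabbit-private peaks. The ETS core CCGGAAG was present in 9.24% of shared, 11.0% of rabbit-private and 7.55% of mouse-private peaks, and the TATA box TATAAA in 1.46, 2.69 and 3.02%, against 6.67% of all starts.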
